A study of Saccharomyces cerevisiae with 6 samples.

Results

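The response of the ptc1 ptc6 double mutant of Saccharomyces cerevisiae to rapamycin was set against that of wild type cells, open reading frame (ORF) by ORF. Both strains are of the BY4741 background, a MATa laboratory strain with his3, leu2, met15 and ura3 markers, and the double mutant carries ptc6::kanMX4 and ptc1::nat1. Each culture, in rich medium (YPD), was split into a part that received rapamycin at 200 ng/ml for 1 h and a part that was mock-treated. The series holds 6 two-colour arrays of 3 strains, and the comparison used the 2 wild type and the 2 ptc1 ptc6 arrays, with the 2 arrays of the ptc6 single mutant beside them for reference. No ptc1 single mutant is among these arrays, so what the loss of Ptc1 alone does cannot be told apart from what the loss of both does. The measurement is the log2 ratio of rapamycin-treated over mock-treated RNA of 1 strain, so that 1 stands for a 2-fold induction and -1 for a 2-fold repression. ORFs were kept when all 4 arrays had a value and when the systematic name did not start with YL or YM, which left 2860 of the 6212 ORFs listed. For each, the mean of the 2 wild type log2 ratios was subtracted from the mean of the 2 ptc1 ptc6 log2 ratios, and this value is called the difference.

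Rapamycin inhibits TORC1, the kinase complex that couples growth to nutrients. When TORC1 is inhibited, yeast cells shut off the genes for ribosomal proteins and for the factors that assemble ribosomes. They also switch on genes for the use of poor nitrogen sources, through Gln3 and Gat1, genes of the general stress response, through Msn2 and Msn4, and genes of the vacuole and of autophagy. Ptc1 and Ptc6 are type 2C protein phosphatases. Ptc1 is best known as a negative regulator of the Hog1 osmotic stress and Slt2 cell wall integrity kinases, and Ptc6 is a mitochondrial phosphatase with a role in mitophagy.

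The 2 arrays of a strain hold the same RNA preparations with the dyes exchanged and were counted as 1 biological replicate. No difference between the strains therefore has a replicate check, and no test was made. The spread between the 2 arrays, which is technical only, had an SD of 0.37 in wild type and 0.44 in ptc1 ptc6, and the arrays of a strain differed by more than 2-fold for 43 and 71 of the ORFs. The median log2 ratio of the arrays lay between 0.01 and 0.05. By the letter of the chromosome in the ORF name, the correlation of the 2 strains across ORFs was 0.94 to 0.97 for the 14 chromosomes kept, but 0.02 for YL (186 ORFs) and 0.54 for YM (196 ORFs). Between ptc6 and wild type the same 2 chromosomes gave 0.97 and 0.97, so the rows named YL and YM were left out of the comparison. PTC6 itself had log2 ratios of 1.11 and 0.62 in wild type and no value on any mutant array. PTC1 had a single value of -0.28, on wild type array 2. A ratio is taken against the mock-treated cells of the same strain, so a weaker induction from less RNA after rapamycin and one from more RNA before it cannot be told apart in these data.

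Most of the response was shared by both strains. Of the 426 ORFs induced past 2-fold in wild type by the mean, 320 were also induced past 2-fold in ptc1 ptc6 and 106 were within 2-fold there. Of the 504 repressed in wild type, 433 were repressed past 2-fold in both strains and 71 only in wild type. The double mutant had 35 induced and 41 repressed ORFs that were within 2-fold in wild type. No ORF was past 2-fold in opposite directions. The arrays of the 2 strains did not overlap for 42.4% of all ORFs kept. An ORF was called when the difference was past 2-fold and the arrays of the 2 strains did not overlap. By this rule 29 ORFs were higher in ptc1 ptc6, 1.01% of the 2860, and 31 were lower, 1.08%. At 1.5-fold the counts were 125 higher, 4.37%, and 126 lower, 4.41%. Of the 60 called ORFs, 30 were past 2-fold in each dye orientation. With each array left out in turn, 31 of the 60 stayed past 2-fold throughout, and 29 were within 2-fold without at least 1 of the arrays. The lower calls were mostly weaker inductions, since in wild type cells 25 of the 31 were past 2-fold induction on each array. The higher calls were mostly weaker repressions, since 19 of the 29 were past 2-fold repression there. Wild type values enter both the call and this grouping, which favours such a split. By the mean, 14.9% of all ORFs were induced and 17.6% repressed past 2-fold in wild type. Among called genes that were past 2-fold on both wild type arrays, AAD10 alone had a stronger induction in the double mutant, and none had a stronger repression. Of the called genes within 2-fold in wild type, MLS1 and YHR022C were induced past 2-fold in the double mutant and TOS6 was repressed past 2-fold there, by the mean.

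**Figure D1:**
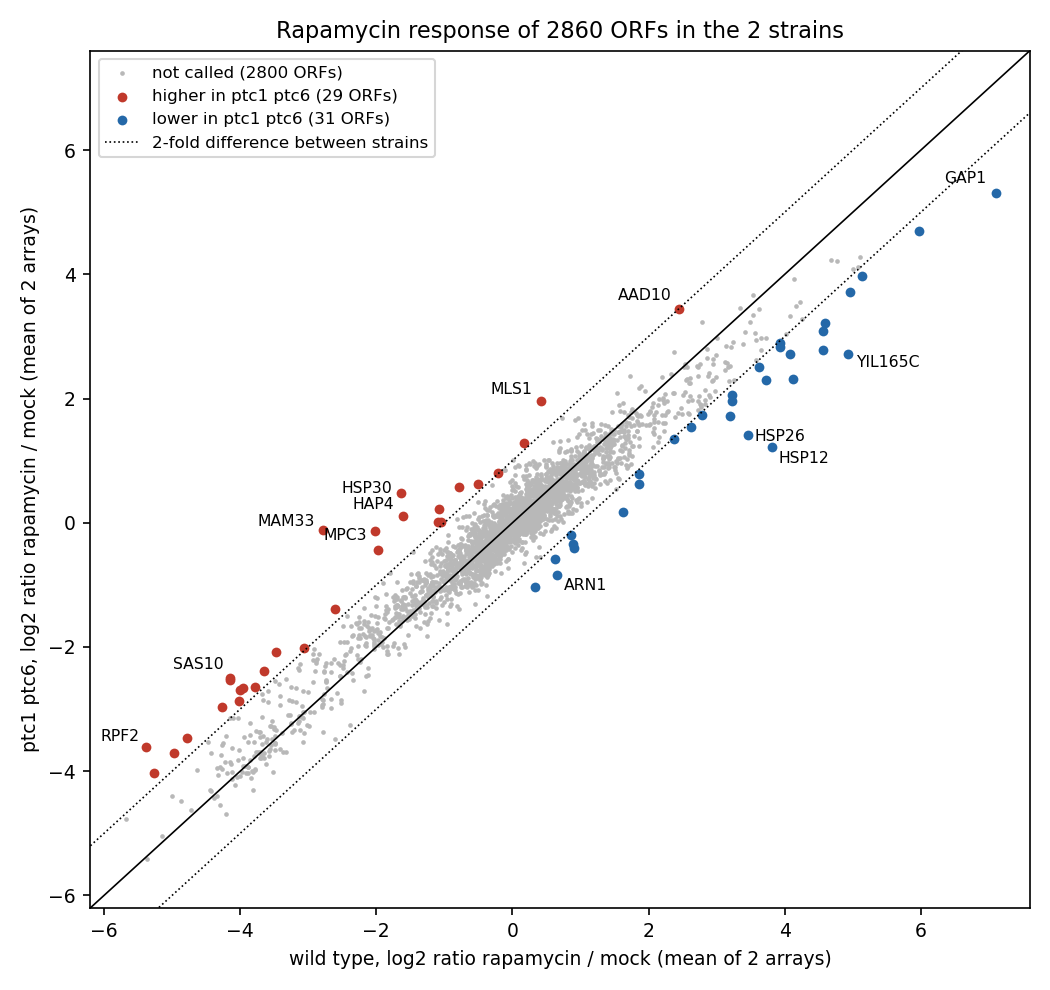
Mean log2 ratio of rapamycin over mock in ptc1 ptc6 (vertical) against wild type (horizontal), 1 point per ORF (2860), with the diagonal of equal response and dotted lines at a 2-fold difference. The 31 ORFs called lower lie mainly at the induced end, and the 29 called higher mainly at the repressed end.

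The difference grew with the strength of the induction. Among genes induced in wild type the median difference was -0.30, and 357 of 426 had a difference below 0, against 54.3% of all ORFs. Among genes repressed in wild type it was 0.21, and 377 of 504 had a difference above 0, against 45.7% of all ORFs. Choosing genes by their wild type value favours a smaller value in any other strain, so genes were also grouped by the ptc6 arrays, which enter neither side of the difference. There the median difference was -0.19 for 214 ORFs at log2 ratios of 1 to 2 and -0.42 for 68 ORFs at 2 to 3. It was -0.67 for 17 ORFs at 3 to 4 and -1.04 for the 8 ORFs over 4. On the repressed side no such order was seen. The median difference was 0.21 for 216 ORFs between -2 and -1, 0.20 for 111 ORFs between -3 and -2, and 0.02 for 64 ORFs between -4 and -3, a range that holds many ribosomal protein genes.

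**Figure D2:**
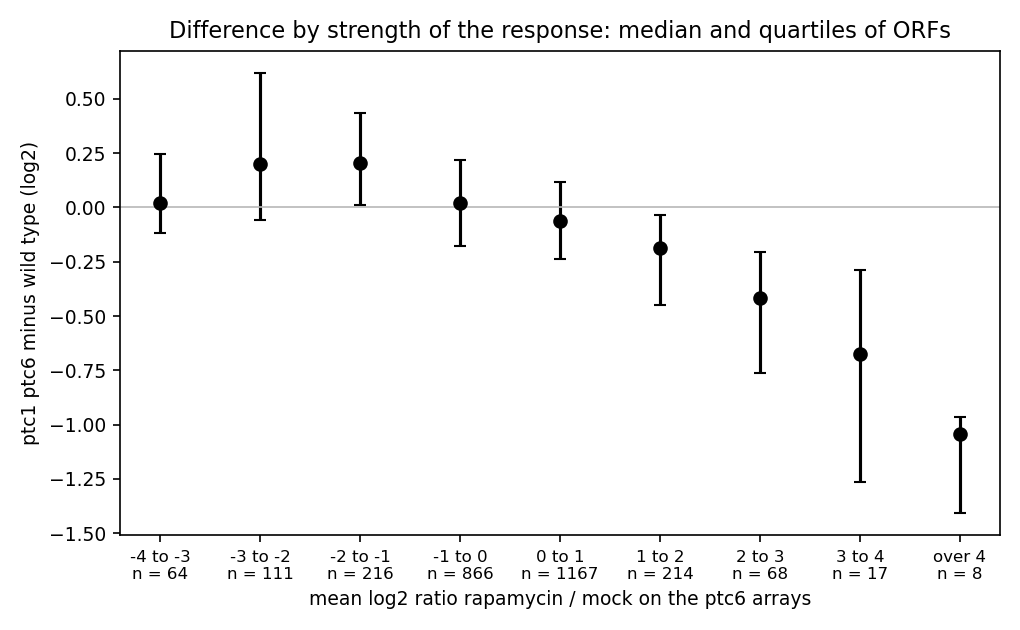
Difference between ptc1 ptc6 and wild type in log2 units (vertical) for ORFs grouped by their mean log2 ratio on the ptc6 arrays (horizontal), with the median as a point, the quartiles as bars and the number of ORFs under each group. The median goes from -0.19 to -1.04 with stronger induction, while the most repressed group shown has a median of 0.02.

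HSP12, which encodes a small stress protein of membranes, had the largest weakening of an induction. Its log2 ratio was 3.99 and 3.64 on the wild type arrays, 2.38 and 2.40 on the ptc6 arrays, and 1.21 and 1.23 on the ptc1 ptc6 arrays. The 3 strains did not overlap, and the induction was 6.05-fold weaker in the double mutant than in wild type (difference -2.60). HSP26, a small heat shock chaperone, gave 3.73 and 3.18 in wild type, 2.26 and 2.55 in ptc6, and 1.43 and 1.40 in ptc1 ptc6, a difference of -2.04. TSA2, a thioredoxin peroxidase, gave 3.91 and 4.33 in wild type, 2.52 and 2.71 in ptc6, and 2.25 and 2.37 in ptc1 ptc6, a difference of -1.81. For TSA2 most of the distance from wild type was already present in the single mutant, whereas HSP12 and HSP26 were lower again in the double mutant. The comparisons of both mutants share the wild type arrays. GPG1, which encodes a protein of the G protein signalling pathway of nutrient sensing, was different in this respect. It gave 4.86 and 4.27 in wild type, 4.36 and 4.39 in ptc6, and 2.76 and 2.82 in ptc1 ptc6, so that the ptc6 arrays lay within the wild type range and those of the double mutant 3.43-fold below. HSP12, HSP26 and GPG1 are also on a list that the study made of genes higher in untreated ptc1 ptc6 cells than in untreated wild type cells. For each of them the fold increase that the study gave for untreated cells was larger than the fold weakening found here. The part of the untreated levels in these differences was not tested.

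**Figure D3:**
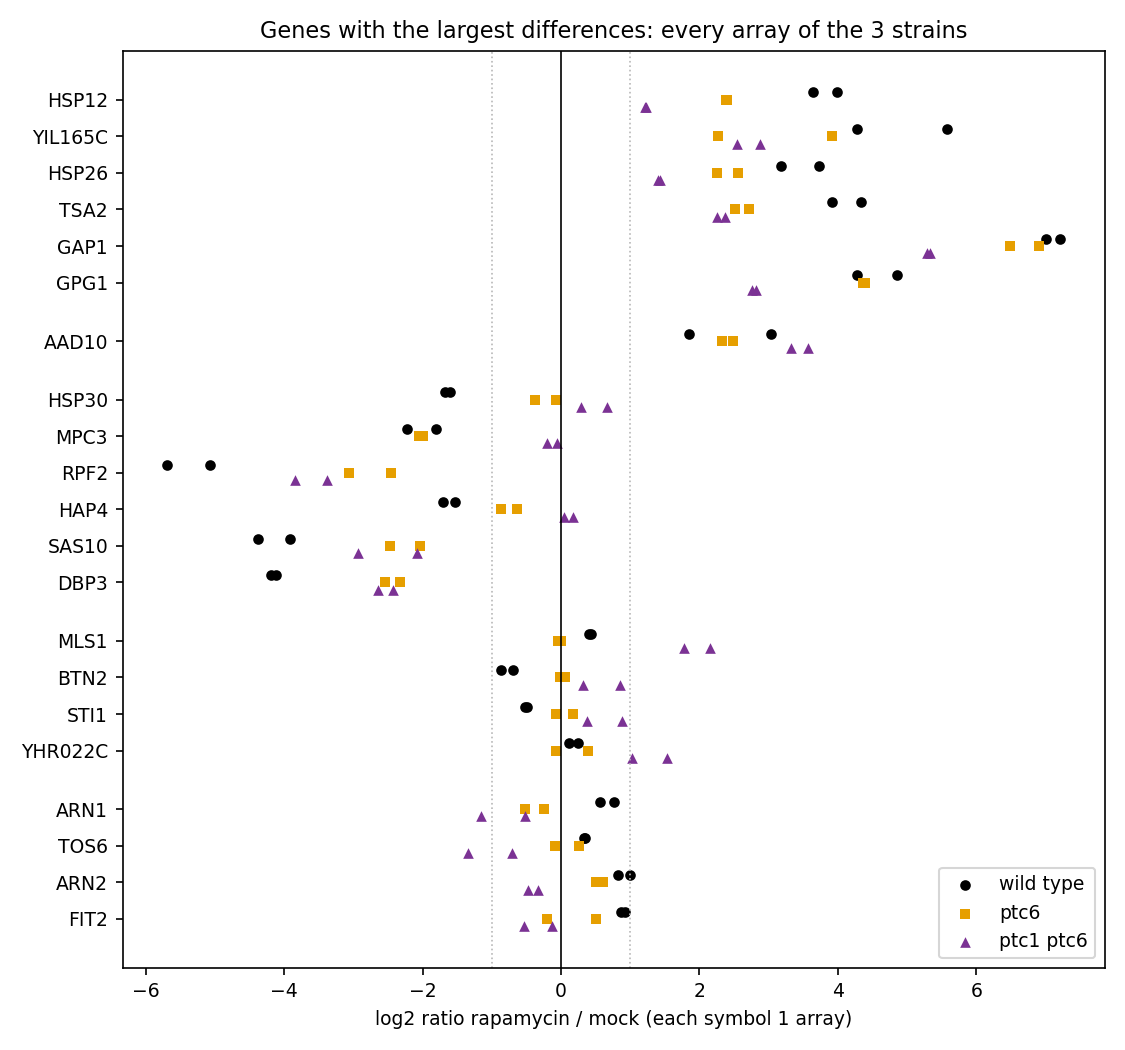
Log2 ratio of rapamycin over mock on every array (1 symbol per array) for the 21 genes named for the largest differences, in wild type (circles), ptc6 (squares) and ptc1 ptc6 (triangles), with dotted lines at 2-fold. All are called genes, so by the calling rule their wild type and ptc1 ptc6 symbols do not overlap. The place of the ptc6 symbols depends on the gene. For RPF2 they lie beyond the double mutant, and for MLS1 on the far side of wild type.

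HSP12 and HSP26 belong to the targets of Msn2 and Msn4, of which 45 of 76 listed were measured. In this list 6 genes were called lower and none higher, against 1.08% and 1.01% of all ORFs. At 1.5-fold 16 were lower and 2 higher, against 4.41% and 4.37% of all ORFs. The list's median difference was -0.36, against -0.03 for all ORFs. The other called members were ECM4, a glutathione transferase (-1.49), NQM1, a transaldolase (-1.42), APE1, also known as LAP4, a vacuolar aminopeptidase (-1.39), and AMS1, the vacuolar alpha-mannosidase (-1.12, and -0.73 without wild type array 1). The weakening did not cover the list evenly. The catalase gene CTT1 gave 0.55 and 0.93 in wild type against 0.91 and 0.68 in ptc1 ptc6, and the trehalose synthesis gene TPS1 gave 1.55 and 1.68 against 1.62 and 1.35, so that for both the strains overlapped. PNC1, the nicotinamidase, overlapped as well, at 1.35 and 1.54 against 1.58 and 1.46. GND2, a 6-phosphogluconate dehydrogenase, lay on the other side of 0, with 0.05 and -0.13 in wild type and 0.65 and 0.67 in the double mutant. Of the 25 antioxidant and redox genes measured, 21 had a difference below 0, with a median of -0.21 (-0.38 without ptc1 ptc6 array 1 and -0.34 without wild type array 1). TSA2 and ECM4 were the 2 called, both lower, against 1.08% of all ORFs. The peroxiredoxin PRX1 (-0.85) and the glutathione transferase GTT1 (-0.84) were past 1.5-fold. Of the 14 Hog1 target and pathway genes measured, HSP12 alone was called, and the list had a median of -0.19, which went from -0.37 without wild type array 1 to -0.04 without wild type array 2.

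Genes under nitrogen catabolite repression kept a strong induction in the double mutant but a smaller one for several of the best induced. GAP1, the general amino acid permease, had the highest wild type value among the ORFs kept, 7.21 and 7.0. It gave 6.48 and 6.91 in ptc6, just below wild type, and 5.34 and 5.29 in ptc1 ptc6, a difference of -1.79. MEP2, the high-affinity ammonium permease, gave 6.43 and 5.53 in wild type, 5.52 and 5.29 in ptc6 and 4.66 and 4.73 in ptc1 ptc6. AGP1, an amino acid permease of broad specificity, gave 3.86 and 4.01, then 4.02 and 4.19, then 2.71 and 2.95 in the same order. For AGP1 the single mutant was at or above wild type, and the double mutant alone was lower. Leaving out 1 array brought the difference of MEP2 to -0.83 (wild type array 1) and that of AGP1 to -0.98 (ptc1 ptc6 array 1). DUR3, the urea and polyamine permease, was just short of the limit at -0.98, and PTR2, the peptide transporter, was at -0.74. In contrast, the ammonium permeases MEP1 (-0.21) and MEP3 (0.20) and the GABA permease UGA4 (-0.10) differed little. Over the 13 permease genes measured, 3 were called lower, against 1.08% of all ORFs. None was higher at 1.5-fold, and the median was -0.29.

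Among the 22 enzymes and regulators of the same regulon that were measured, 21 were induced past 2-fold in wild type, and the median difference was -0.33. NIT1, a nitrilase, was the called member, with 4.42 and 4.70 in wild type, 3.52 and 3.18 in ptc6, and 2.99 and 3.19 in ptc1 ptc6. Its neighbour in the R64 annotation, YIL165C, gave 5.58 and 4.27, then 3.91 and 2.27, then 2.54 and 2.88, a difference of -2.22 with a wide spread between the arrays of a strain. Genes of urea, allantoin and GABA use were past 1.5-fold, with DUR1,2 at -0.98, DAL3 at -0.92, DAL7 at -0.82 and UGA1 at -0.82, and so was the glutamate dehydrogenase GDH2 at -0.91. The genes of ammonium assimilation did not share this. Glutamine synthetase, GLN1, gave 1.63 and 2.16 in wild type and 2.22 and 2.19 in ptc1 ptc6 (0.31), and glutamate synthase, GLT1, gave 1.12 and 1.23 against 1.5 and 1.72 (0.44). The transcription factor genes GAT1 (-0.06) and GLN3 (-0.17) were near 0. DAL2, allantoicase, had a stronger induction in the double mutant by 0.45.

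Vacuolar genes formed part of the same pattern. APE1 gave 4.82 and 4.37 in wild type, 3.38 and 3.20 in ptc6, and 3.27 and 3.14 in ptc1 ptc6, so both mutants were alike and below wild type. AMS1 gave 4.02 and 3.23, then 2.70 and 1.63, then 2.32 and 2.68, so that both mutants were again below wild type. Its difference was -0.73 without wild type array 1 and -0.94 without ptc1 ptc6 array 1. Of 12 vacuolar protease and hydrolase genes measured, 10 had a difference below 0 and the median was -0.23 (-0.45 without wild type array 1). The main vacuolar protease PEP4 was at -0.24 with overlapping arrays, while PRB1 (-0.68) and its inhibitor PBI2 (-0.78) were past 1.5-fold. The 13 core autophagy genes measured had a median of -0.07, or -0.23 without wild type array 2 and -0.17 without ptc1 ptc6 array 2, with none called, and their lowest member was ATG34, a receptor for vacuolar enzymes including Ams1, at -0.63. ATG36, the receptor for the autophagy of peroxisomes, was called at -1.03 but was at -0.70 without wild type array 1. TMT1, the trans-aconitate methyltransferase and a member of the list of branched-chain amino acid synthesis, was called at -1.15, and HOS4, a subunit of the Set3 deacetylase complex, at -1.24, both from wild type log2 ratios near 5.

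For 3 called genes of the iron regulon, ARN1, ARN2 and FIT2, the log2 ratio was above 0 in wild type and below 0 in the double mutant. Aft1 and Aft2 switch this regulon on when iron is scarce. ARN1, a siderophore transporter, gave 0.56 and 0.76 in wild type, -0.52 and -0.25 in ptc6, and -0.52 and -1.15 in ptc1 ptc6, a difference of -1.496. ARN2, its relative, gave 0.99 and 0.82 in wild type, 0.51 and 0.61 in ptc6, but -0.47 and -0.33 in ptc1 ptc6 (-1.31). Both were thus above 0 on the wild type arrays and below 0 on those of the double mutant. The genes for the cell wall mannoproteins that retain siderophores were lower in the double mutant as well. FIT1 gave 1.60 and 1.65 in wild type, 1.28 and 1.34 in ptc6, and 0.19 and 0.17 in ptc1 ptc6 (-1.44), and FIT2 gave 0.86 and 0.93, then -0.21 and 0.50, then -0.13 and -0.54 (-1.23), so that FIT1 stayed above 0 in the double mutant and FIT2 did not. The siderophore transporter SIT1 (-0.82) and FIT3 (-0.77) were past 1.5-fold, and the iron permease FTR1 was at -0.57. Of the 16 members measured, 4 were called lower and none was called higher, against 1.08% and 1.01% of all ORFs. The median of -0.55 was the lowest of the 40 lists written from general knowledge. The members close to 0 were AFT1 (0.04), AFT2 (0.11), the vacuolar iron transport gene FTH1 (0.07) and the iron-sulfur scaffold gene ISU1 (-0.03).

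Genes of the cell wall integrity pathway, which Slt2 controls through Rlm1, were split. SED1, a structural cell wall protein, gave 1.67 and 2.05 in wild type, 1.40 and 1.88 in ptc6, and 1.06 and 0.19 in ptc1 ptc6, with a wide gap between the arrays of the double mutant. KDX1, a pseudokinase related to Slt2, gave 3.65 and 2.81, then 2.47 and 2.05, then 1.82 and 2.30 (-1.17). PRM5 (-1.05) and SRL3 (-1.04) were called too, and the glucan synthase GSC2 was at -0.98. All 5 were weaker inductions. Each of the 4 called was within 2-fold without 1 array, with -0.80 for SED1 and -0.94 for PRM5 without ptc1 ptc6 array 2, -0.75 for KDX1 without wild type array 1, and -0.945 for SRL3 without ptc1 ptc6 array 2. In contrast, the transcription factor gene RLM1 (0.20) and the wall protein genes PST1 (-0.05) and PIR3 (0.54) were not lower, and SLT2 was at -0.46. NCA3, of the SUN family of wall proteins, was called in the other direction, from -2.20 and -1.76 in wild type to -0.29 and -0.60 in ptc1 ptc6 (1.54). Of 34 measured, 4 were called lower and 1 higher, against 1.08% and 1.01% of all ORFs. The list had a median of -0.22, which went from -0.38 without ptc1 ptc6 array 1 to -0.07 without ptc1 ptc6 array 2. Other genes of the cell surface and of mating were lower as well, namely TOS6, a wall protein, at -1.36, PRY1, a secreted sterol-binding protein, at -1.20, AGA2, a subunit of a-agglutinin, at -1.08 and MFA2, an a-factor gene, at -1.06. Without ptc1 ptc6 array 2, PRY1 was at -0.81, AGA2 at -0.745 and MFA2 at -0.945.

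The study's list of genes higher in untreated ptc1 ptc6 cells than in untreated wild type cells came from other arrays, which were not analysed here. The ratios reported here are taken against the mock-treated cells of each strain, so for a gene on that list they start from levels that the study found unequal. Of its 80 genes 56 were measured, and 49 of these were induced past 2-fold in wild type. The median difference was -0.68, 50 genes were below 0, and 17 were called lower while none was called higher. These 17 are 30.4% of the list, while 1.08% of all ORFs were called lower, and they are 54.8% of the 31 ORFs called lower. Among them are HSP12, HSP26, GPG1, ECM4, NQM1, MEP2, KDX1 and the 4 called iron genes. GAP1, AGP1, NIT1, TSA2 and APE1 are not on the list. Without the list, the 377 other ORFs induced in wild type had a median difference of -0.27, against -0.67 for the 49 on it. The wild type inductions of the list were higher. Among ORFs above a log2 ratio of 2, the medians were -0.86 for 35 on the list and -0.51 for 104 others. For the Msn2 and Msn4 targets the median was -0.69 for 17 genes on the list and -0.15 for 28 not on it, and for the cell wall genes -0.86 for 11 and -0.11 for 23. The part of the untreated levels in these differences was not tested.

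The repressed genes divided between the ribosome and the machinery that builds it. The 60 genes measured for large and the 39 for small subunit proteins were all repressed past 2-fold in wild type, with median log2 ratios of -3.61 and -3.65. In ptc1 ptc6 the medians were -3.62 and -3.75, and the median differences were -0.03 and -0.06, with no gene called in either list. When each ptc1 ptc6 array was set against each wild type array, 4 comparisons in all, the median difference of the 99 genes went from -0.32 to 0.29, so its sign is not settled. The largest single differences were 0.56 for RPP1B, a stalk protein, and -0.87 for RPS20, which gave -2.76 and -2.46 in wild type and -3.37 and -3.59 in ptc1 ptc6. In the ptc6 single mutant the medians of the 2 lists were -3.04 and -3.09. Many ribosomal proteins are encoded by near-identical gene pairs, which these probes of whole amplified ORFs may not resolve.

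The assembly factors were less repressed in the double mutant than in wild type. For the small subunit processome and related factors the median difference was 0.45 over 33 genes, with 4 called higher and none lower, and for the factors of the large subunit it was 0.36 over 55 genes, with 8 called higher and none lower (0.205 without ptc1 ptc6 array 2). Together 12 genes of these lists of 33 and 55 were called higher, while 1.01% of all 2860 ORFs were. These 12 are 41.4% of the 29 ORFs called higher. RPF2, which brings the 5S ribonucleoprotein to the large subunit, gave -5.07 and -5.69 in wild type, -2.46 and -3.07 in ptc6, and -3.84 and -3.39 in ptc1 ptc6. The repression was 3.40-fold weaker than in wild type, and weaker again in the single mutant. SAS10, a processome subunit, gave -4.38 and -3.91, then -2.04 and -2.47, then -2.93 and -2.08 (1.64). DBP3, a helicase of large subunit assembly, gave -4.19 and -4.12, then -2.33 and -2.55, then -2.64 and -2.43 (1.62). For these 3 genes both mutants were above wild type on every array. The processome subunits UTP4 (1.31), UTP9 (1.30) and UTP7 (1.22) and the export GTPase LSG1 (1.39) were called as well, as were MAK21 (1.32), RRP12 (1.32), MTR4 (1.27), NUG1 (1.25) and SPB1 (1.04). Of these, 5 were within 2-fold without 1 array. LSG1 was at 0.67 without wild type array 1, SPB1 at 0.63 without ptc1 ptc6 array 2, and UTP7 at 0.68, UTP9 at 0.89 and RRP12 at 0.835 without wild type array 2. LSG1, UTP9 and RRP12 were also within 2-fold without ptc1 ptc6 array 2, at 0.87, 0.83 and 0.92. The weaker repression was not particular to the double mutant. By the mean, each called assembly factor was less repressed in ptc6 than in wild type, and all but SPB1 less than in ptc1 ptc6. NUG1 had means of -2.705 in ptc6 and -3.715 in ptc1 ptc6, RRP12 -2.03 and -2.685, and SPB1 -2.29 and -2.023. RPA43, a subunit of RNA polymerase I, was at 1.24 (0.985 without ptc1 ptc6 array 2), while RPA135, the second largest subunit of the same enzyme, gave -3.68 and -3.72 in wild type and -3.74 and -3.83 in ptc1 ptc6.

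The gap between the 2 classes was also there among genes past a common limit of repression, although a limit does not match the 2 classes in depth. Among genes at or below -3 in wild type, the median difference was 0.82 for 36 assembly factors and -0.01 for 83 ribosomal protein genes. When the genes were chosen at or below -3 in ptc1 ptc6 instead, it was 0.48 for 19 and -0.04 for 85. On the ptc6 arrays a limit of -2 was used instead of -3. At or below it, the median difference was 0.73 for 33 assembly factors and -0.04 for 95 ribosomal protein genes. Of the small subunit factors with a mean on these arrays, NOP58 (-3.025) and NOP14 (-3.135) alone were at or below -3. Medians at that limit are not given for the ptc6 arrays. Without ribosomal protein genes the median of the 405 other ORFs repressed in wild type was 0.29, and without the assembly factors too it was 0.26 over 331, so a weaker repression was not limited to these factors. Translation factors had a median of 0.24 with 33 of 36 above 0, and tRNA synthetases 0.19 with 14 of 18 above 0. The second median was 0.40 without ptc1 ptc6 array 1, 0.31 without wild type array 2 and 0.08 without ptc1 ptc6 array 2. None of either was called. GLN4, glutaminyl-tRNA synthetase, was at 0.59 (0.33 without ptc1 ptc6 array 2). TIF4632, one of the genes for eIF4G, was at 0.97 (0.54 without ptc1 ptc6 array 2). It was not repressed in wild type, at 0.10 and -0.35, so its difference is not a weaker repression. Some of the synthetase genes were also within 2-fold in wild type, such as ALA1 with a mean of -0.85. SRO9, which encodes an RNA-binding protein of translation, was called at 1.15, and was at 0.90 without ptc1 ptc6 array 1.

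**Figure D4:**
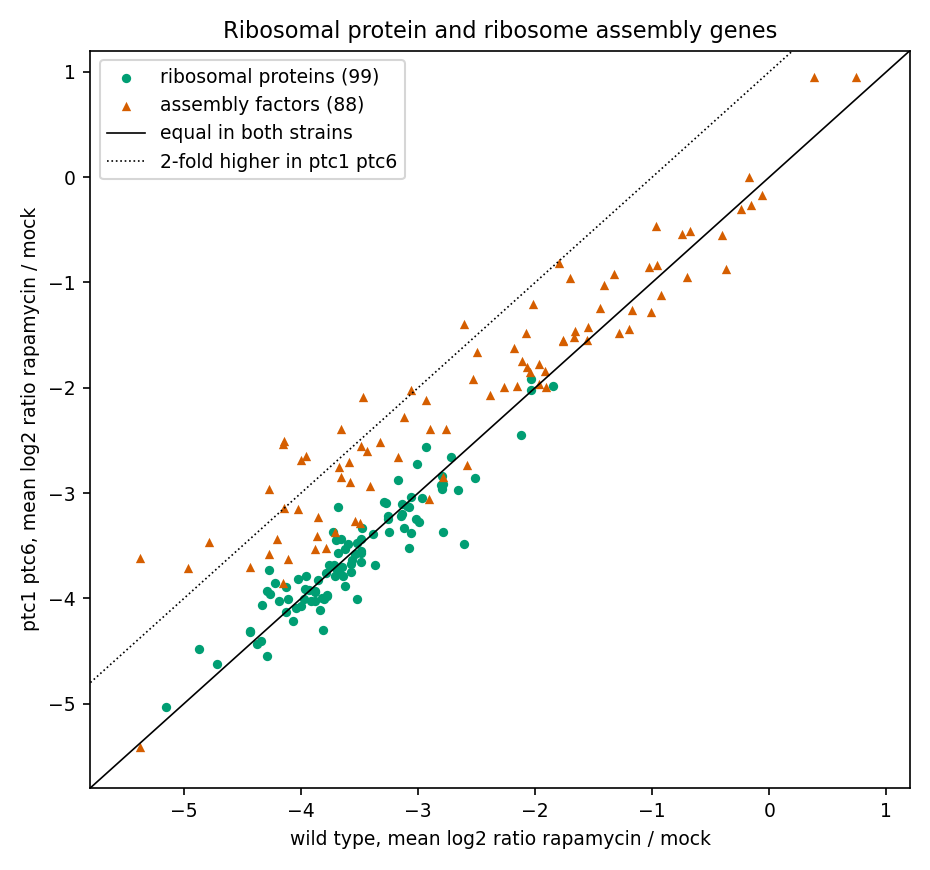
Mean log2 ratio of rapamycin over mock in ptc1 ptc6 (vertical) against wild type (horizontal) for 99 ribosomal protein genes (circles) and 88 ribosome assembly genes (triangles), with lines for an equal response and for a 2-fold higher value in ptc1 ptc6. The circles lie along the line of equal response (median difference -0.04), and the triangles mostly above it (0.37).

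Heat shock proteins and chaperones moved apart from the stress genes above. HSP30, a stress-induced protein of the plasma membrane, gave -1.61 and -1.67 in wild type, -0.38 and -0.07 in ptc6, and 0.67 and 0.29 in ptc1 ptc6. Rapamycin thus lowered it in wild type and not in the double mutant, with a difference of 2.12. STI1, a cochaperone that links Hsp70 to Hsp90, gave -0.52 and -0.49, then -0.08 and 0.17, then 0.38 and 0.88 (1.14, and 0.89 without ptc1 ptc6 array 2). BTN2, which acts in the sorting of misfolded proteins, gave -0.69 and -0.87, then 0.06 and -0.02, then 0.31 and 0.86 (1.36). For all 3 the ptc6 arrays lay between the other strains. Hsp90, as HSP82, was at 0.91, the mitochondrial Hsp70 SSC1 at 0.79, the cytosolic Hsp70 SSA1 at 0.72, MDJ1 at 0.70, SSE1 at 0.68 and SIS1 at 0.61, all past 1.5-fold. Of 29 members measured 23 were above 0, with a median of 0.40. There were 2 called higher and 1, HSP26, lower, against 1.01% and 1.08% of all ORFs. The members below 0 were mainly those that rapamycin induced in wild type, namely HSP26, HSP31 (-0.66), SSE2 (-0.28) and HSP78 (-0.19). The 9 genes measured for the CCT chaperonin and prefoldin were all above 0, by at most 0.31.

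Genes of carbon metabolism included some of the highest differences. HAP4, the regulatory subunit of the activator of respiratory genes, gave -1.70 and -1.53 in wild type, -0.87 and -0.63 in ptc6, and 0.04 and 0.17 in ptc1 ptc6 (1.72). MPC3, a subunit of the mitochondrial pyruvate carrier, gave -2.22 and -1.81, then -2.0 and -2.05, then -0.06 and -0.21 (1.88). The repression of MPC3 was thus kept in the single mutant and not seen in the double mutant. MLS1, the malate synthase of the glyoxylate cycle, gave 0.43 and 0.40 in wild type, -0.05 and 0.00 in ptc6, and 2.16 and 1.77 in ptc1 ptc6 (1.55), an induction present in the double mutant alone. The cytosolic malate dehydrogenase MDH2 was at 0.72 and fumarase, FUM1, at 0.74. The hexose transporter gene HXT3 gave -1.22 and -0.95 in wild type and 0.15 and 0.30 in ptc1 ptc6 (1.31), and HXT1 (0.98) and HXT7 (0.82) followed it. The HXT genes are close in sequence, and their probes may share signal. Glycolytic enzyme genes lay on both sides of 0, from -0.65 for GLK1 to 0.35 for ENO2. TDH2 and TDH3 had equal values on the wild type and ptc6 arrays. On the ptc1 ptc6 arrays they were near-equal, at -0.116 and -0.37 against -0.117 and -0.369. TDH1, ENO1 and ENO2 also read -0.369 on ptc1 ptc6 array 2, so these values may not be independent readings of each gene. Why they are shared was not tested. The 36 genes measured of the TCA cycle, the respiratory chain and the ATP synthase had a median of -0.10 with HAP4 alone called, and the median was 0.05 without ptc1 ptc6 array 2.

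The other called genes belong to varied functions. YHR022C, of unknown function, gave 0.24 and 0.11 in wild type and 1.54 and 1.02 in ptc1 ptc6, with a difference of 1.11 that was 0.85 without ptc1 ptc6 array 1. The Pho85 cyclin gene PCL7 gave -1.23 and -0.87 in wild type, -0.08 and -0.04 in ptc6, and 0.12 and -0.10 in ptc1 ptc6 (1.06, and 0.88 without wild type array 1). HDA1, a histone deacetylase, was at 1.02 (0.80 without ptc1 ptc6 array 2). AAD10, an aryl alcohol dehydrogenase gene, gave 3.03 and 1.85 in wild type and 3.32 and 3.56 in ptc1 ptc6, a difference of 1.00 that is just past the limit and was 0.41 without wild type array 2. The largest difference in the higher direction, 2.68 for MAM33, a mitochondrial matrix protein, rests on wild type array 1. It read -5.16 there and -0.41 on wild type array 2, against -0.16 and -0.06 in ptc1 ptc6, so the gene's difference without wild type array 1 is 0.30.

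Of the 40 lists, 17 had a called member and 23 had none. All 10 histone genes had a difference below 0, from -0.26 for HTB1 to -0.53 for HHF1, with a median of -0.34 and none past 1.5-fold. The 31 proteasome genes had a median of 0.09 and the 18 phosphate regulon genes 0.03, and both medians changed sign with 1 array left out (-0.014 for the proteasome without wild type array 1, and -0.04 for the phosphate regulon without wild type array 2). The 42 mitochondrial ribosomal protein genes had a median of 0.13, between 0.06 without wild type array 1 and 0.26 without ptc1 ptc6 array 2. Among amino acid synthesis genes the median was -0.26 for 16 arginine and lysine genes. It was -0.12 for 33 aromatic, histidine, serine and threonine genes, with -0.20 when wild type array 1 was left out and -0.06 when array 2 was. For 21 methionine and sulfate genes it was -0.02, no lower than that of all ORFs. The 17 genes of TORC1 and of its phosphatase branch had a median of -0.10, and none was past 1.5-fold. Among the other type 2C phosphatases, PTC2 (0.28), PTC3 (0.09), PTC5 (0.00) and PTC7 (-0.15) overlapped or nearly so, and PTC4 was less repressed, at -0.32 and -0.42 in ptc1 ptc6 against -1.03 and -0.73 in wild type. ZRT1, the high-affinity zinc transporter, was at 0.99 and just outside the limit.

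**Figure D5:**
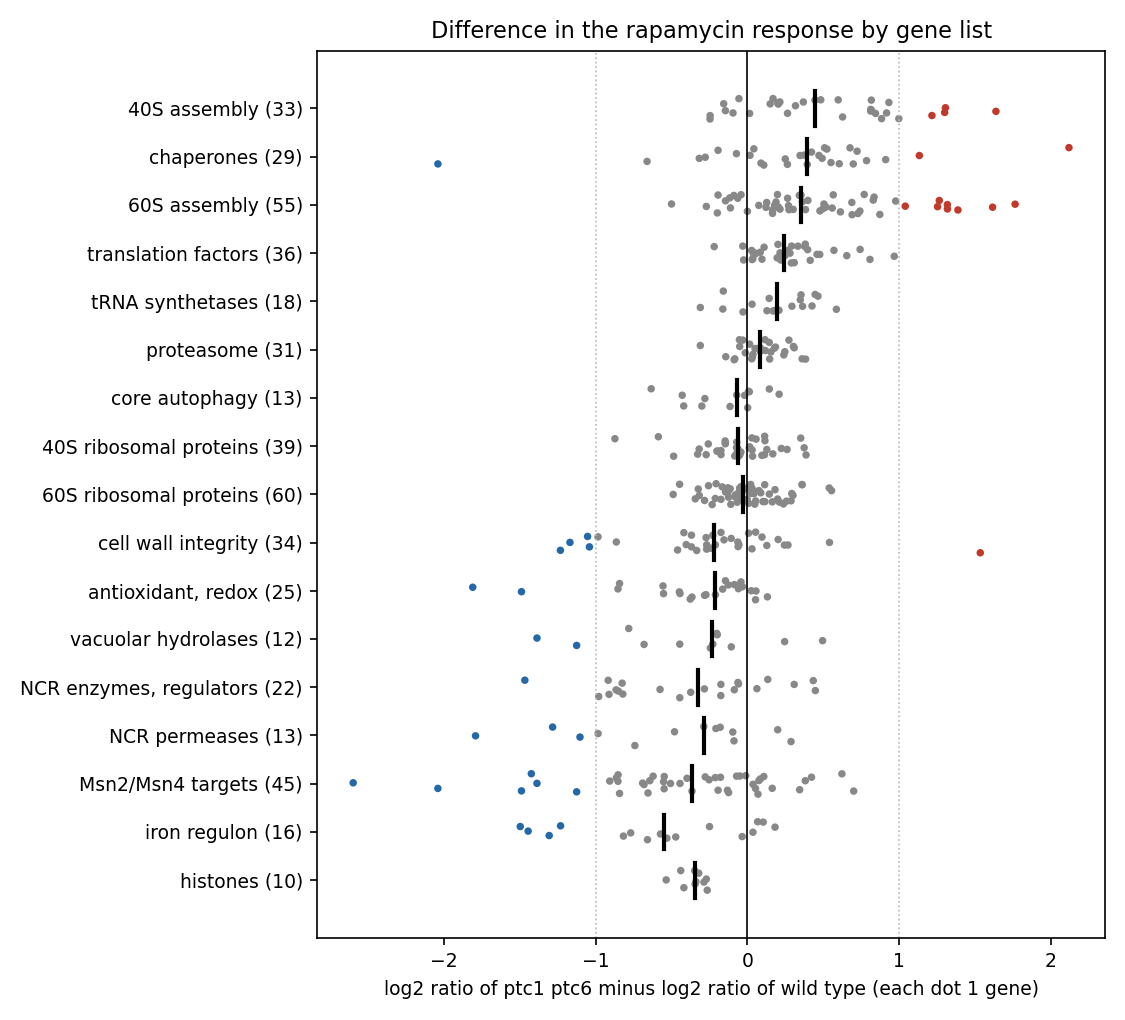
Difference between ptc1 ptc6 and wild type in log2 units (horizontal) for the genes of 17 lists (1 dot per gene, number of genes in brackets, black bar for the median, coloured dots for called genes, dotted lines at 2-fold). Medians go from -0.55 for the iron regulon to 0.45 for 40S assembly, and both ribosomal protein lists are near 0.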

How the data were processed

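The authors hybridized cDNA from rapamycin-treated and mock-treated cells to arrays of amplified ORFs, scanned them (ScanArray 4000, GenePix Pro 6.0), removed spots under 120 µm in diameter or under 150 fluorescence units, and preprocessed the data in GEPAS 3.0. The deposited values are log2 ratios of rapamycin over mock per ORF and array. The method of normalization is not given in the sources used here, intensities were not used, and the values were not normalized again. Arrays have no read depth, and precision is limited by how few arrays there are. The sample descriptions give an optical density of the cultures that differs from the methods.

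Of 6212 ORF names, 5639 matched the R64 annotation, used for names only. Means of the 2 arrays were subtracted (Python 3.11.15, numpy 2.4.6, pandas 2.3.3, matplotlib 3.10.9), and the calling step was checked on simulated data. With 1 biological replicate per strain no test was made. The groups, the members and the gene lists were chosen with earlier results of these data known. The lists came from general knowledge of yeast genes, except the list for untreated cells, taken from the study's supplement.

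Genes named were, among called genes, the 6 with the largest weakening and the 4 with the largest strengthening of an induction on both wild type arrays, the same for repressions, the 4 highest and 4 lowest among genes within 2-fold in wild type, and for each list up to 3 called members or else the member of largest difference. Other genes were named after their values were seen. Alternatives were other fold limits, no condition on overlap, centred arrays, a value on at least 1 array, ORFs starting YL or YM kept, other selections of induced and repressed genes, and leaving out each array. Leaving out the list for untreated cells or the ribosomal protein genes was added after seeing the data.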

Additional observations from a re-analysis of the deposited data

Results flagged for a closer look

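For 12 called genes both wild type arrays lay on one side of 0 and both ptc1 ptc6 arrays on the other. Some of these values are near 0, such as -0.09 for MFA2 on ptc1 ptc6 array 1 and -0.08 for HDA1 on wild type array 1. These are smaller than the spread between arrays, so the sign alone does not show that rapamycin moved the gene. With 2 dye-swapped arrays per strain the difference was not tested. Over all 2860 ORFs, 77 had such opposite signs, most of them with small values. Of the 12 called genes 6 were lower in the double mutant. These were the siderophore transporter genes ARN1 (-1.496) and ARN2 (-1.31), the siderophore wall protein gene FIT2 (-1.23), the wall protein gene TOS6 (-1.36), the sterol-binding protein gene PRY1 (-1.20) and the a-factor gene MFA2 (-1.06). ARN1, ARN2 and FIT2 are also on the study's list for untreated ptc1 ptc6 cells. The other 6 were higher in the double mutant, namely HSP30 (2.12), HAP4 (1.72), BTN2 (1.36), the hexose transporter gene HXT3 (1.31), STI1 (1.14) and the histone deacetylase gene HDA1 (1.02). With each array left out in turn, PRY1, MFA2, STI1 and HDA1 were within 2-fold without ptc1 ptc6 array 2, at -0.81, -0.945, 0.89 and 0.80.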

How the results depend on the processing

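The counts of ORFs past 2-fold, 29 higher and 31 lower, depended on the limit. At 1.5-fold there were 125 and 126, and at 3-fold 7 and 6. With ORFs starting YL or YM kept there were 117 and 98, and with a value on at least 1 array of each strain 56 were lower. Leaving out 1 array gave 34 to 58 higher and 40 to 67 lower, the highest without ptc1 ptc6 array 1 (58 higher) and without wild type array 2 (67 lower), and a strain left with 1 array has fewer arrays to overlap. The median difference of genes induced in wild type, -0.30, was below 0 under each alternative. It was -0.33 with a value on at least 1 array, -0.19 for genes selected on the ptc1 ptc6 arrays, -0.21 and -0.47 for genes selected past 1.5-fold and 3-fold, and -0.34 to -0.32 with 1 array left out. The median of repressed genes, 0.21, was above 0 under each, with 0.11 for genes selected on the ptc1 ptc6 arrays, 0.29 without ribosomal protein genes and 0.19 to 0.27 with 1 array left out. Of 41 gene lists, 12 had a median that changed sign with 1 array left out. Among them were those for ribosomal proteins of the large (-0.18 to 0.16) and small subunit (-0.20 to 0.14), glycolysis and hexose transport (-0.08 to 0.29), the zinc regulon (-0.17 to 0.195) and fatty acid oxidation, glyoxylate and gluconeogenesis (-0.16 to 0.05), and the medians of the other 29 kept their sign. Of the genes that the rule named, THI20, of thiamine synthesis and not called, went from -0.63 to 0.019 without wild type array 1, and no other changed sign. No paired analysis was possible because the 2 arrays of a strain are a dye swap of the same RNA and no test was made. Signal over background was not analysed here.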
